A study of Homo sapiens with 33 samples.

Results

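BAP1, its cofactors and the tumour suppressor genes that neighbour it on the short arm of chromosome 3 were followed by RNA-seq in 6 cell lines, in control cultures, under palbociclib and after drug washout. The 9 genes were chosen by name among the 58302 genes of the deposited expression matrix. They are BAP1 itself, its partners ASXL1, ASXL2, FOXK1, FOXK2 and HCFC1, and the chromosome 3 genes PBRM1, SETD2 and SMARCC1. All 9 passed the filter of at least 100 CP20M in at least 1 library, as did 17803 genes in all. CP20M is the number of reads of a gene per 20000000 reads of its library. H2052, H2452, H28 and MSTO-211H are malignant pleural mesothelioma (MPM) lines sensitive to palbociclib, an inhibitor of CDK4 and CDK6. The resistant lines are MPP89, derived from an MPM and mutated in RB1, and MeT-5A, normal mesothelial cells that SV40 immortalized. Cells received DMSO or 1 µM palbociclib for 9 or 10 days, in 2 paired experiments for H2052 and MPP89, in 3 for H2452, H28 and MSTO-211H, and in 1 for MeT-5A, which also had 1 untreated library. In 1 experiment of each sensitive line, drug-treated cells were also sampled 48 h after washout. BAP1 is described as mutated in H2452 and as carrying an exon deletion in H28, and as wild-type in the other lines. A gene level value does not show which exons were read, so it does not bear on these alterations directly. Each line is a single tumour or culture, and all values below describe these lines.

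BAP1 is a deubiquitinase that removes the ubiquitin mark placed on histone H2A by Polycomb repressive complex 1, and it is among the genes most often inactivated in MPM. Its catalytic activity needs an ASXL protein, the FOXK transcription factors bring it to DNA, and HCFC1 is a chromatin scaffold that joins it to other regulators. PBRM1 and SMARCC1 are subunits of SWI/SNF chromatin remodellers, SETD2 writes trimethylation on lysine 36 of histone H3, and in many tumours these genes are lost together with BAP1.

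The 33 libraries were scaled to about the same total, between 20007662 and 20021400 CP20M. The depth could be read from the spacing of low values in 23 libraries, with a median of 16380000 reads and a range from 12770000 to 19830000, and 1 read was then worth at most 1.57 CP20M. Among the mesothelial markers, the summed level of all 8 genes ran from 6038 to 52538 CP20M in the control libraries and from 8880 to 52235 in the treated ones. MSLN, WT1, CALB2, PDPN and KRT19, which mark mesothelial cells, were each as low as 0 or 1 CP20M in at least 1 control library. The leukocyte markers summed to at most 363 CP20M in the control and 1130 in the treated libraries, both in H2452. That line had 135 to 363 with DMSO and 284 to 1130 with palbociclib. The sums were between 112 and 163 in MPP89 and MeT-5A and at most 18 in the other lines. Only 1 of the 3 leukocyte markers passed the filter, and CD3E, of T cells, was listed at 0 throughout the control libraries. The 2 endothelial markers summed to at most 122 CP20M in the control libraries and the 2 epithelial ones to at most 62. MKI67, a gene of proliferating cells, fell by 3.10 on the log2 scale with palbociclib over the 11 pairs of sensitive lines, and it stood between 99.2% and 111% of the DMSO value in the 3 pairs of resistant lines. In cultures measured in bulk, fewer cells that express a gene and less RNA of it per cell cannot be told apart.

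The first question was how the 9 genes differ among the control cultures of the lines, which were treated with DMSO in 14 of 15 libraries. Every member differed among the 6 lines (limma F test, FDR under 0.05), but so did 96.3% of all genes tested, which makes this no particular feature of the members. The ratio of the highest to the lowest mean of a line ran from 2.0 for ASXL2 to 3.37 for SMARCC1, beside a median of 3.28 over all genes. The range was larger in 83.5% of all genes than for ASXL2, and in 48.6% than for SMARCC1. Compared per kb of exon, HCFC1 had the highest mean level over the lines, 675 CP20M per kb, followed by BAP1 with 445, SMARCC1 with 432, FOXK1 with 426 and ASXL1 with 401. FOXK2 had 270 CP20M per kb, and PBRM1, ASXL2 and SETD2 had the lowest levels, 176, 167 and 161. The length here is that of the merged exons of all annotated transcripts of a gene, not of the transcripts expressed. Levels per kb thus compare different genes only roughly, here and in the ratios of paralogs below.

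**Figure D1:**
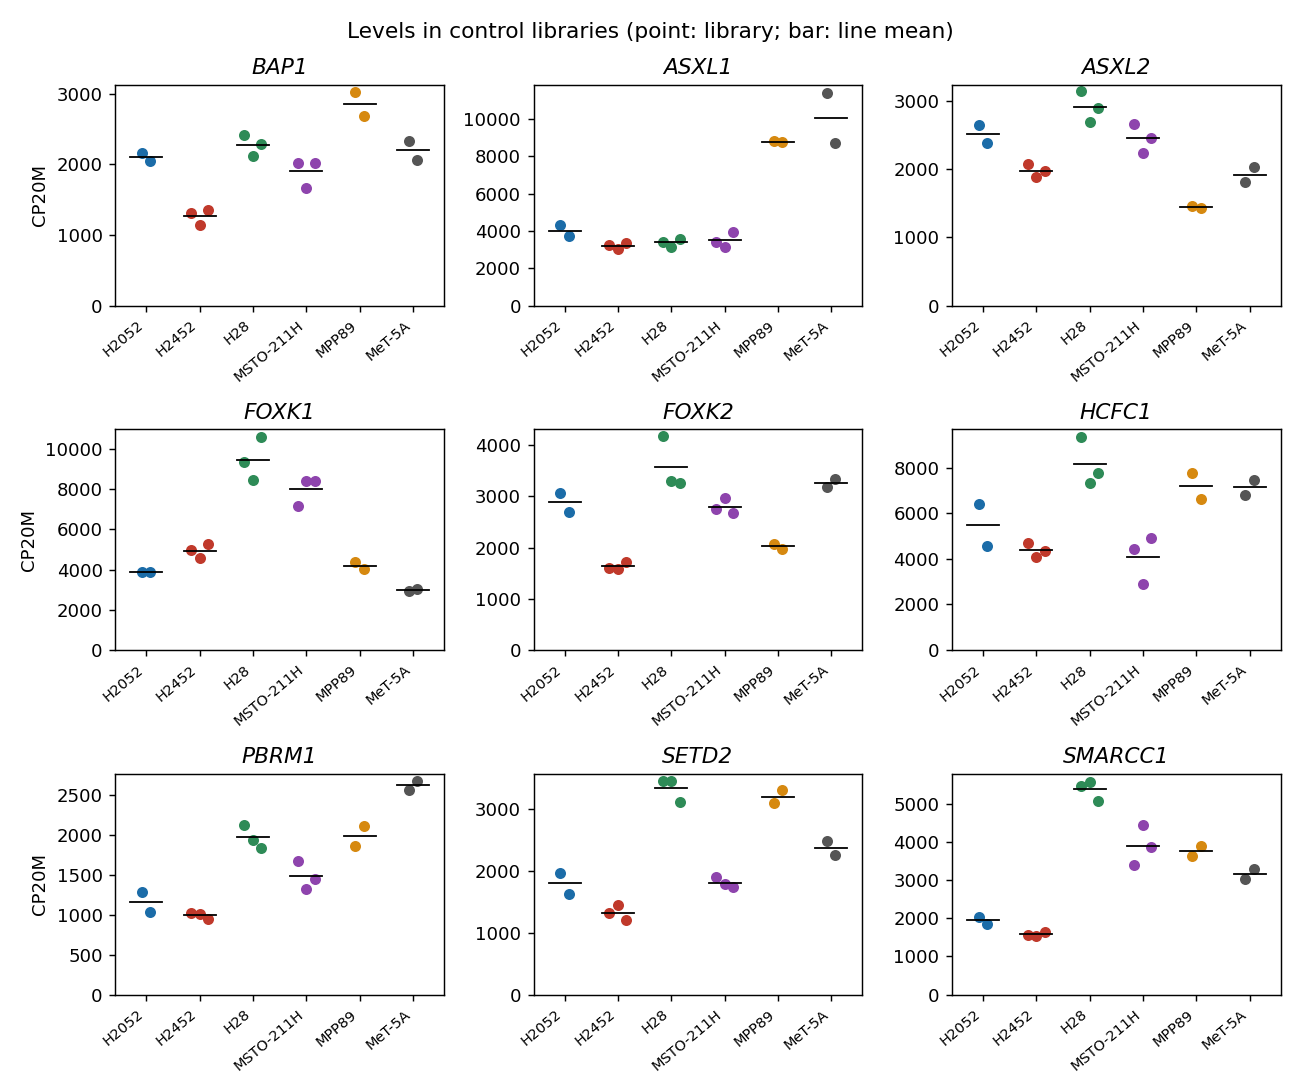
CP20M (y axis, from 0) of the 9 genes in the control libraries of the 6 lines (x axis), where a point is a library and a bar is the mean of a line. H2452 holds the lowest mean of BAP1, ASXL1, FOXK2, PBRM1, SETD2 and SMARCC1, and ASXL1 separates MPP89 and MeT-5A, between 8694 and 11399 CP20M, from the 4 sensitive lines.

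BAP1 (ENSG00000163930, chromosome 3 from 52401008 to 52410008 of GRCh38, minus strand) was lowest in H2452, with 1307, 1145 and 1353 CP20M in its 3 DMSO libraries. H28, the other line with an altered BAP1, had 2420, 2119 and 2290 CP20M. The wild-type lines had 2157 and 2049 in H2052, 2014, 1669 and 2021 in MSTO-211H, 3031 and 2690 in MPP89, and 2068 with DMSO and 2329 untreated in MeT-5A. H2452 lay below every other control library, MPP89 above every other, and the ranges of H28 and MeT-5A, and of MeT-5A and H2052, overlapped. Against the mean of the other 5 lines, H2452 was lower by 0.82 ± 0.09 (log2, SE; FDR = 2.68e-06), a 1.77-fold difference. H28 was at 0.19 ± 0.09 (FDR = 0.0786), so the line with an exon deletion did not have a low level of BAP1 transcripts as counted over the whole gene.

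The 2 ASXL paralogs differed in their order of lines. ASXL1 (ENSG00000171456, chromosome 20 from 32358330 to 32439319) had 8805 and 8764 CP20M in MPP89, and 8694 with DMSO and 11399 untreated in MeT-5A. In the sensitive lines H2052 had 4301 and 3702 CP20M, MSTO-211H 3386, 3143 and 3952, H28 3430, 3135 and 3569, and H2452 3249, 3054 and 3344. All 4 libraries of the resistant lines were above all 11 of the sensitive lines, while the neighbouring ranges of the sensitive lines overlapped. ASXL1 was 2.36-fold higher in MeT-5A (log2 difference 1.24 ± 0.12, FDR = 1.37e-06) and 2.03-fold higher in MPP89 (1.02 ± 0.12, FDR = 8.20e-06), and it was lower by 0.71 ± 0.10 in H2452 and by 0.63 ± 0.10 in H28. The call in H28 was lost without its replicate 2 (-0.58) and with either other scaling, where the difference was under 1.5-fold. ASXL2 (ENSG00000143970, chromosome 2 from 25733753 to 25878487) was in contrast lowest in MPP89, with 1467 and 1424 CP20M, and highest in H28, with 3149, 2698 and 2891. The difference of MPP89 was -0.68 ± 0.10 (FDR = 5.51e-05), and H28 stayed under the 1.5-fold threshold at 0.52 ± 0.08. The CP20M per kb of exon of ASXL1 was 5.88 times that of ASXL2 in MPP89 and 5.02 times in MeT-5A. It was between 1.12 times (H28) and 1.57 times (H2452) in the sensitive lines. The length used does not affect the comparison of this ratio between lines.

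The bases upstream of these paralogs are shown because the pair differs most in its distribution over the lines. They are the 250 bases before the start of each gene in RefSeq (GRCh38.p14), for ASXL1 on the plus strand at chr20:32358081-32358330 and for ASXL2 on the minus strand at chr2:25878488-25878737, and capitals mark the motifs found on either strand.
ASXL1: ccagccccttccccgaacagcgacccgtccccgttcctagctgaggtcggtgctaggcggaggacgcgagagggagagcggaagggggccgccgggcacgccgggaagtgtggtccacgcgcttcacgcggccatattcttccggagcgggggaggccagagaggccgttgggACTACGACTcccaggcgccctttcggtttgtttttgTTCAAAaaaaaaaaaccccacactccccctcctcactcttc
ASXL2: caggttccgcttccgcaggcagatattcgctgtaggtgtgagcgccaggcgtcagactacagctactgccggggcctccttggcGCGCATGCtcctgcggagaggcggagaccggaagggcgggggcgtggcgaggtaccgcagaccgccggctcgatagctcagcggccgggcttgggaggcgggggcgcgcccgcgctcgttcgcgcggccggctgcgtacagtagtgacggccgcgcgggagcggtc
G and C made up 64.0% of the ASXL1 sequence and 72.4% of that of ASXL2. In ASXL1 the capitals are a match of ACTACNANT, the core of the ZNF143 and THAP11 motif, which is a sequence through which HCFC1 can be recruited, and a reversed TTTGAA, the cell cycle homology region (CHR). In ASXL2 they are a reversed GCATGCGC, the NRF1 motif. The window searched, for these genes and for all promoters, also held bases after the start that are not printed. There ASXL2 had a CCAAT, at position 34 from the start. Of 27305 promoters of the same table, 2.46% held ACTACNANT, 15.4% TTTGAA, 3.27% GCATGCGC and 35.7% CCAAT. Promoter entries were found for 6 of the 9 genes, and none held TTTCCCGC, TTTCGCGC, TTTGCCGC or TTTGGCGC, the E2F motifs searched, which occurred in 3.33% of all promoters. No match says only that these letters were not in the window, and the ZNF143 and THAP11 motif was added after the sequence of ASXL1 had been seen.

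FOXK1 and FOXK2, forkhead factors that bind BAP1, also differed in their distribution. FOXK1 (ENSG00000164916, chromosome 7 from 4682295 to 4771442) had 9366, 8471 and 10589 CP20M in H28 and 7141, 8416 and 8413 in MSTO-211H. It had 4993, 4564 and 5283 CP20M in H2452, 4381 and 4024 in MPP89, 3902 and 3859 in H2052, and 3053 and 2935 in MeT-5A. No neighbouring lines overlapped in this order. H28 was 2.08-fold higher than the other lines (1.06 ± 0.09, FDR = 1.96e-07), MSTO-211H was 1.70-fold higher (0.76 ± 0.09, FDR = 7.03e-06), and MeT-5A was 1.90-fold lower (-0.93 ± 0.11, FDR = 7.19e-06). FOXK2 (ENSG00000141568, chromosome 17 from 82519713 to 82644662) had its lowest values in H2452, 1594, 1586 and 1716 CP20M, 1.74-fold below the other lines (-0.80 ± 0.09, FDR = 2.68e-06). Its other line means ran from 2026 CP20M in MPP89 to 3583 in H28. Exons of FOXK2 share 1405 bases with genes on the opposite strand, and the libraries were directional. FOXK1 exceeded FOXK2 per kb of exon in H2452 (2.31 times), MSTO-211H (2.17 times), H28 (2.02 times) and MPP89 (1.58 times), was level with it in H2052 (1.03 times), and was below it in MeT-5A (0.700 times).

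**Figure D2:**
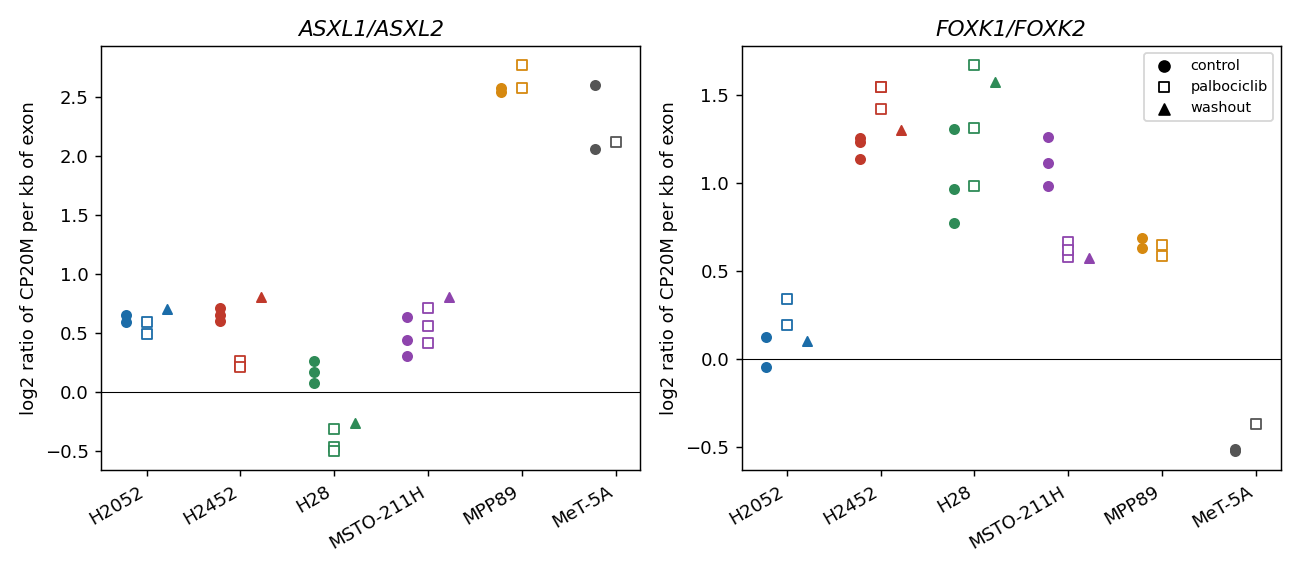
The log2 ratio of CP20M per kb of exon (y axis) of ASXL1 to ASXL2 and of FOXK1 to FOXK2 in every library of the 6 lines (x axis), with filled circles for control, open squares for palbociclib and triangles for washout. The ASXL ratio is at least 2.05 in the control libraries of MPP89 and MeT-5A and at most 0.709 in those of the sensitive lines, and the FOXK ratio is below 0 in MeT-5A.

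HCFC1 (ENSG00000172534, chromosome X from 153947557 to 153971818) varied most between libraries of the same line, with a pooled SD within lines of 0.25 on the log2 scale against 0.10 to 0.14 for the other members. Its DMSO libraries had 4440, 2905 and 4905 CP20M in MSTO-211H, 6408 and 4565 in H2052, 4702, 4102 and 4362 in H2452, and 9360, 7324 and 7781 in H28. The resistant lines had 7789 and 6626 CP20M in MPP89 and 7482 and 6826 in MeT-5A. H28 overlapped with MPP89, MPP89 with MeT-5A, H2052 with H2452, and H2452 with MSTO-211H. MSTO-211H was called lower than the other lines (-0.66 ± 0.15, FDR = 0.00158), a call that rested on its replicate 2, without which the difference was -0.43 (FDR = 0.0158) and under the 1.5-fold threshold.

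The 4 members on chromosome 3 shared a low level in H2452. PBRM1 (ENSG00000163939, from 52545352 to 52685917) had 1020, 1014 and 941 CP20M there, and SETD2 (ENSG00000181555, from 47016428 to 47164113) had 1313, 1448 and 1205. SMARCC1 (ENSG00000173473, from 47585269 to 47782106) had 1567, 1548 and 1654. Each of these genes had its lowest line mean in H2452, as BAP1 did. The differences from the other lines were -0.83 ± 0.09 for PBRM1 (FDR = 3.51e-06), -0.87 ± 0.09 for SETD2 (FDR = 1.01e-06) and -1.11 ± 0.09 for SMARCC1 (FDR = 1.14e-07), the last a 2.16-fold difference.

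In the other lines the chromosome 3 genes did not keep a common order. SMARCC1, a core scaffold of the remodeller, was highest in H28 with 5479, 5591 and 5095 CP20M, 1.99-fold above the other lines (0.99 ± 0.09, FDR = 2.48e-07), and H2052 was called lower with 2031 and 1861 (-0.76 ± 0.10, FDR = 3.16e-05). SETD2 was higher in H28, with 3458, 3450 and 3112 CP20M (0.73 ± 0.09, FDR = 4.38e-06), and in MPP89, with 3093 and 3313 (0.66 ± 0.10, FDR = 0.000106), and these 2 lines overlapped. PBRM1, the subunit that reads acetylated histones, was in contrast highest in MeT-5A, with 2679 and 2563 CP20M (0.84 ± 0.11, FDR = 2.41e-05), a difference that was under 1.5-fold with median-of-ratios scaling (0.58). H2052 had 1285 and 1041 CP20M of PBRM1, above H2452 and below the rest.

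Counted over the 9 members, H2452 was called lower for 6 and higher for none, beside 29.7% of all genes lower and 17.6% higher. One of the 6 is ASXL1, for which the other lines include MPP89 and MeT-5A with their high levels, and the ranges of H2452 and H28 overlapped. H28 was called higher for 3 and lower for 1, beside 19.4% and 30%, and MPP89 for 2 and 1, beside 23.9% and 14.3%. MeT-5A was higher for 2 and lower for 1, beside 29.7% and 16%, MSTO-211H for 1 and 1, beside 21.1% and 23.5%, and H2052 for 0 and 1, beside 20% and 22.9%. The median difference over the members was -0.80 in H2452 and 0.54 in H28, beside -0.12 and -0.09 over all genes.

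The low level in H2452 was not limited to the members. From the first base of SETD2 to the last of PBRM1, 135 genes were tested, of which 131 are no members. Their median difference from the other lines in H2452 was -0.96 with and -0.97 without the members, beside -0.03 over the 810 tested genes elsewhere on chromosome 3 and -0.12 over all genes. Among the 810, the 233 genes that lie before the span, towards the end of the short arm, had a median of -0.70. In this span 113 of the 135 genes were called lower in H2452 and 3 higher. H28 and MPP89 had a span median of 0.46 and 0.44, and H2052 and MSTO-211H were at -0.21 and -0.12. MeT-5A was at 0.28, beside 0.20 over all genes. Along the chromosome, in bins of 5 Mb of at least 20 tested genes that were chosen after the values had been seen, the H2452 medians ran from -0.95 to -0.56 in the 5 bins from 15 Mb before BAP1 to 5 Mb after it, and the bin at 20 Mb before it was at 1.02. The 3 bins between 45 and 35 Mb before BAP1 were again between -0.91 and -0.72. Neighbouring genes are not independent observations, these medians are a description, and copy number was not measured in these data.

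**Figure D3:**
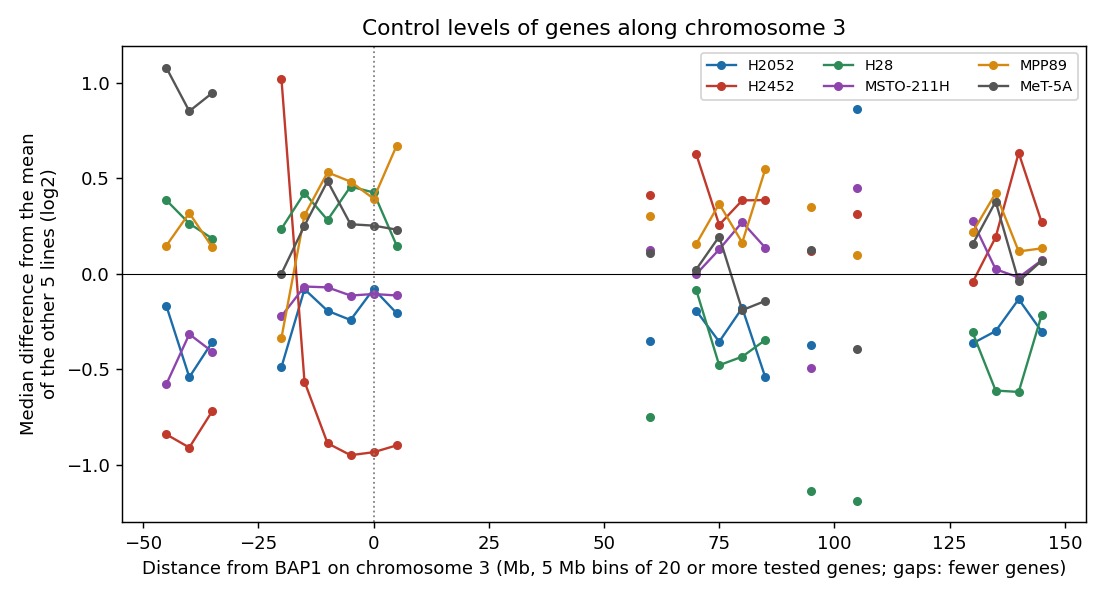
Median difference of control levels from the mean of the other 5 lines (y axis, log2) for genes in 5 Mb bins of distance from BAP1 (x axis, Mb) along chromosome 3, with a colour for each line and gaps where a bin has fewer than 20 tested genes. The H2452 points lie at -0.93 around BAP1 and above 0 in all bins of 60 Mb or more after it but the one at 130 Mb (-0.04).

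As a description of likeness, the genes whose log2 level over the 15 control libraries followed BAP1 most closely were ZNF382 (Pearson r = 0.97), IGSF8 (r = 0.96) and ZNF71 (r = 0.96). For SMARCC1 they were RBMX (r = 0.99), MRPL50 (r = 0.97) and AHCTF1 (r = 0.97). The points are libraries of only 6 lines, and the genes were picked as the highest of all.

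The second question was whether palbociclib changed these genes in the sensitive lines. The fit counted the 11 pairs of 4 lines as separate units, so its SEs, FDRs and intervals do not measure the spread between lines. No member passed the fold and FDR thresholds together (fold change above 1.5, FDR under 0.05), beside 15% of all genes, 9.37% lower and 5.58% higher. By the FDR alone, a count made after the values had been seen, 7 of the 9 were lower, beside 33.7% of all genes, and their fold changes were between 1.16 and 1.40. HCFC1 and ASXL1 had the largest differences, and SETD2 and SMARCC1 followed. The median log2 fold change was -0.24 over the 9 members and -0.11 over all genes.

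ASXL1, one of the ASXL cofactors of BAP1, was lower with palbociclib in all 11 pairs. The values with DMSO and then with palbociclib were 4301 and 3005, and 3702 and 2823 CP20M in H2052. They were 3249 and 2193, 3054 and 2252, and 3344 and 2224 in H2452, and 3430 and 2330, 3135 and 2339, and 3569 and 2342 in H28. MSTO-211H had 3386 and 2568, 3143 and 2759, and 3952 and 2690. The 2 conditions did not overlap in any of the 4 lines. The log2 fold change was -0.47 ± 0.05 (SE, FDR = 9.38e-06), which is 1.39-fold, and its 95% interval ran from -0.58 to -0.37.

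HCFC1 was lower in 10 of 11 pairs, by 0.48 ± 0.07 on the log2 scale (FDR = 0.000101, 1.40-fold, 95% interval from -0.63 to -0.33). Its values went from 6408 to 3859 and from 4565 to 3567 CP20M in H2052, and from 4702 to 2848, 4102 to 2948 and 4362 to 3094 in H2452. In H28 they went from 9360 to 5892, 7324 to 5248 and 7781 to 5700. MSTO-211H had 4440 and 3470, 2905 and 3021, and 4905 and 3158, so that its 2 conditions overlapped, while those of the other 3 lines did not. The only pair with a higher value was experiment 2 of MSTO-211H, whose DMSO library had the lowest HCFC1 and the lowest MKI67 (1555 CP20M) of the 11 sensitive DMSO libraries. With this pair left out, HCFC1 still had an FDR under 0.05 over the sensitive lines.

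SETD2, the H3K36 methyltransferase, was lower in all 11 pairs, with log2 differences from -0.62 to -0.18. H28 went from 3458 to 3010, 3450 to 2948 and 3112 to 2562 CP20M, and MSTO-211H from 1897 to 1235, 1788 to 1577 and 1737 to 1280. H2052 went from 1970 to 1289 and 1632 to 1335 CP20M, and H2452 from 1313 to 939, 1448 to 1108 and 1205 to 973. No line had overlapping conditions. The fitted difference was -0.36 ± 0.05 (FDR = 0.000145). SMARCC1 was also lower in all 11 pairs, by 0.31 ± 0.05 (FDR = 0.000375), with differences from -0.53 in H28 to -0.03 in MSTO-211H. PBRM1 was lower in 9 of 11 pairs (-0.24 ± 0.07, FDR = 0.0102), BAP1 in 9 of 11 (-0.22 ± 0.08, FDR = 0.031) and ASXL2 in 9 of 11 (-0.21 ± 0.08, FDR = 0.0399). FOXK2 (-0.11 ± 0.07, FDR = 0.195) and FOXK1 (-0.04 ± 0.09, FDR = 0.744) had FDRs above the threshold.

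These small differences depend on how libraries are scaled. With median-of-ratios scaling the median of all genes moved from -0.11 to 0.06, and with upper-quartile scaling to 0. Relative to the median of all genes, ASXL1 was at -0.36 as deposited, -0.34 with median-of-ratios and -0.34 with upper-quartile scaling, HCFC1 at -0.37, -0.34 and -0.35, SETD2 at -0.25, -0.23 and -0.23, and SMARCC1 at -0.20, -0.18 and -0.19. PBRM1, BAP1 and ASXL2 were between -0.12 and -0.07 under all 3 scalings, FOXK2 between 0.01 and 0.03, and FOXK1 between 0.08 and 0.10. ASXL1, HCFC1 and SETD2 had an FDR under 0.05 under each scaling and alternative tried. Their highest FDRs were 0.0199, 0.0217 and 0.038, each with line means as units. With median-of-ratios scaling BAP1 (FDR = 0.812), ASXL2 (FDR = 0.889) and PBRM1 (FDR = 0.579) did not pass, and FOXK1 and FOXK2 turned to 0.16 and 0.09. Over all 24 alternatives, BAP1 lost its FDR under 0.05 in 13, ASXL2 in 14 and PBRM1 in 4. Of all genes, 14.5% had a lower log2 fold change than HCFC1, the lowest member, in the values as deposited.

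**Figure D4:**
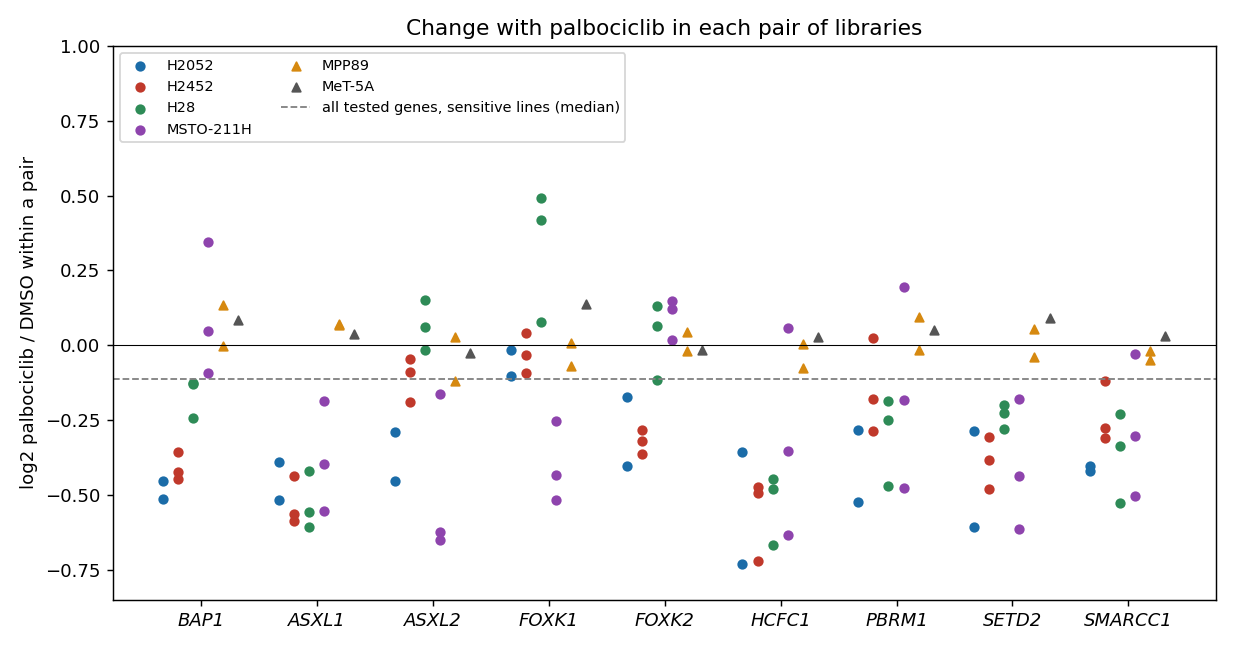
The log2 ratio of palbociclib to DMSO (y axis) of each pair of libraries for the 9 genes (x axis), with circles for the sensitive and triangles for the resistant lines, a colour for each line, and a dashed line at the median of all genes in the sensitive lines (-0.11). ASXL1 lies between -0.61 and -0.19 in all 11 pairs of sensitive lines, and FOXK1 lies above 0 in H28 and below it in MSTO-211H.

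Fitted within single lines, no member passed both thresholds, beside 13.2% of all genes in H28, 13.8% in MSTO-211H, 16.8% in H2452 and 17.7% in H2052. By the FDR alone, 3 members were lower in H2052 (BAP1, ASXL1 and SMARCC1), 5 in H2452 (BAP1, ASXL1, FOXK2, HCFC1 and SETD2), 2 in H28 (ASXL1 and HCFC1) and 0 in MSTO-211H, beside 15.1%, 21.7%, 11.4% and 9.98% of all genes. At an unadjusted p under 0.05, 4 members would have been counted in MSTO-211H, beside 7188 of all 17803 genes. Leaving out any 1 pair brought the count down to at most 1 in H2452 and to 0 in H28.

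Of the 9 members, 4 responded differently among the sensitive lines (limma F test, FDR under 0.05), beside 37.1% of all genes. FOXK1 (FDR = 0.00934) went from 9366 to 12527, 8471 to 8941 and 10589 to 14910 CP20M in H28, and from 7141 to 5992, 8416 to 6227 and 8413 to 5876 in MSTO-211H. Its mean log2 change was 0.33 ± 0.22 (SD, n = 3) in H28, -0.40 ± 0.14 in MSTO-211H, and -0.03 and -0.06 in H2452 and H2052. It was thus higher in all 3 pairs of H28 and lower in all 3 of MSTO-211H, the 2 lines with the highest control levels. BAP1 (FDR = 0.014) was lower in H2052 (-0.48 ± 0.04, n = 2), with 2157 to 1572 and 2049 to 1432 CP20M, and in H2452 (-0.41 ± 0.05, n = 3), with 1307 to 973, 1145 to 891 and 1353 to 991. In H28 it was at -0.17 ± 0.07 and in MSTO-211H at 0.10 ± 0.22, where the pairs went from 2014 to 1890, 1669 to 2121 and 2021 to 2088. The conditions did not overlap in H2052 and H2452, and did in H28 and MSTO-211H. ASXL2 (FDR = 0.0293) was lower in MSTO-211H (-0.48 ± 0.27) and H2052 (-0.37 ± 0.11) and at 0.07 ± 0.08 in H28. FOXK2 (FDR = 0.0218) was lower in H2452 (-0.32 ± 0.04) and H2052 (-0.29 ± 0.16) and at 0.09 ± 0.07 in MSTO-211H. The median of all genes was itself -0.24 for H2052, close to the FOXK2 value there, and -0.10 for H2452. Part of the BAP1 and ASXL2 differences of H2052 was thus shared by genes at large. With upper-quartile scaling, BAP1 had an FDR of 0.353 in the limma fit of H2052 and of 0.227 in the F test among lines. Without the experiment as a block 2 of the 9 members were counted here, as without replicate 1 of H2452, and with upper-quartile scaling 1 was. The F tests of ASXL1, HCFC1, PBRM1, SETD2 and SMARCC1 had FDRs between 0.527 and 0.672, so a difference among lines was not detected for them at this number of pairs.

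In MPP89 and MeT-5A no member passed the thresholds with palbociclib, beside 0% of all genes, of which 1258 had an unadjusted p under 0.05, none of them a member. The log2 fold changes of the members lay between -0.04 and 0.07 over the 3 pairs. ASXL1 went from 8805 to 9224 and from 8764 to 9213 CP20M in MPP89 and from 8694 to 8928 in MeT-5A, higher in 3 of 3 pairs but without passing the test (FDR = 0.69), with a 95% interval from -0.01 to 0.13. HCFC1 went from 7789 to 7381 and from 6626 to 6643 in MPP89 and from 7482 to 7634 in MeT-5A. The differences of the other members in these pairs lay between -0.12 and 0.14.

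The difference of the response between sensitive and resistant lines was tested directly. The units were the 14 pairs, and pairs of the same line were counted as separate. Its FDRs thus do not measure the spread between lines, of which 4 were sensitive and 2 resistant. No member passed both thresholds, beside 6.75% of all genes. By the FDR alone, ASXL1 (-0.53 ± 0.10, FDR = 0.00486), SETD2 (-0.40 ± 0.11, FDR = 0.0312) and HCFC1 (-0.47 ± 0.14, FDR = 0.0431) were lower in the sensitive lines, beside 7.81% of all genes. The median of all genes was itself at -0.14, and relative to it the 3 genes were at -0.40, -0.26 and -0.33. Leaving out either pair of MPP89 or the pair of MeT-5A brought the count to 1, and scaling to 0 or 1. SMARCC1 (FDR = 0.0809), PBRM1 (FDR = 0.191) and BAP1 (FDR = 0.24) were not told apart between the classes, and the 95% interval of BAP1 ran from -0.61 to 0.04. Lines of the 2 classes also differ in RB1, in origin and in immortalization, which cannot be told apart from sensitivity here.

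The members were then set beside the complexes they belong to, over the 11 pairs of sensitive lines. A list gene is said to fall or rise here only if it passed both the fold and the FDR threshold, which no member did. Of 8 tested partners of BAP1, 2 fell and none rose. These were BARD1 (-2.04 ± 0.23, FDR = 1.64e-05) and BRCA1 (-1.05 ± 0.18, FDR = 0.00048), which together form a DNA repair ubiquitin ligase, and the list had a median of -0.21. OGT, the glycosyltransferase of the complex, was at -0.20 (FDR = 0.179) and KDM1B at -0.06. MBD6, which binds BAP1, was at -0.39 ± 0.07 (FDR = 0.000689), under the fold threshold.

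Among the Polycomb genes, those of complex 1 stand on the opposite side of the H2A mark. Of 19 tested genes of Polycomb repressive complex 1, 3 fell, the chromodomain gene CBX2 (-1.18 ± 0.11, from a mean of 468 to 205 CP20M), PCGF6 (-0.78 ± 0.06) and KDM2B (-0.61 ± 0.07), and none rose. The ligase genes RING1 and RNF2 were at -0.20 and -0.27. Of 11 tested genes of complex 2, 3 fell, the H3K27 methyltransferase EZH2 (-1.97 ± 0.12, from 875 to 218 CP20M), PHF19 (-1.90 ± 0.22) and RBBP7 (-0.59 ± 0.06). The medians of the 2 lists were -0.22 and -0.47.

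Of 24 other SWI/SNF subunits, 2 fell, ACTL6A (-0.77 ± 0.08) and ARID2 (-0.69 ± 0.12), a subunit of the same remodeller type as PBRM1, and the median was -0.37. By the FDR alone, as SMARCC1 was, all of these subunits but SMARCA2, SMARCD3, DPF1, DPF3 and SS18 were lower, beside 33.7% of all genes. Among those under the fold threshold were SMARCB1 (-0.58 ± 0.06) and SMARCD1 (-0.55 ± 0.08), each lower in 11 of 11 pairs. SMARCA4, the ATPase, was at -0.36 ± 0.04, close to SMARCC1. Of 5 other H3K36 methyltransferases, NSD2 fell (-1.45 ± 0.11, from 5919 to 2190 CP20M), and NSD1 was at -0.49 ± 0.07 against -0.36 for SETD2. Of 10 partners of HCFC1, HCFC1R1 fell (-1.01 ± 0.13), and THAP11 and ZNF143 were at -0.49 and -0.34. Of 13 tested other genes of 3p21, none passed and the median was 0.0042. Of the 7 tested mesothelial markers, CALB2 rose (1.69 ± 0.41) and none fell. The counts of genes that fell by both thresholds are read against 9.37% of genes called lower, and MKI67 fell by 3.10 in the same pairs. The part of proliferation in these differences was not tested.

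The last question was whether the levels came back 48 h after palbociclib was removed, with 1 washout library in each of 4 lines. Against palbociclib, no member passed both thresholds and none had an FDR under 0.05, beside 1.4% of all genes by both criteria, all of them higher, and 1.56% higher by the FDR alone. At an unadjusted p under 0.05, 2 members would have been counted, ASXL1 and SETD2, beside 2322 of all 17803 genes. In the same experiments palbociclib against DMSO gave 0 members by both criteria, beside 18.6% of all genes, and 4 members lower by the FDR alone (ASXL1, HCFC1, SETD2 and SMARCC1), beside 24.3%. The median log2 difference of washout from palbociclib was 0.085 over all genes and 0.092 over the 9 members, so the members rose about as much as genes in general. Against DMSO these medians were -0.05 and -0.14.

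ASXL1 went from 3702 CP20M with DMSO to 2823 with palbociclib and 3758 after washout in H2052, and from 3344 to 2224 and 3300 in H2452. In H28 it went from 3569 to 2342 and 2622, and in MSTO-211H from 3952 to 2690 and 3079. It was thus back at the DMSO value in H2052 and H2452 and part of the way in the other 2. Washout was higher than palbociclib by 0.33 ± 0.10 (FDR = 0.158), in 4 of 4 lines, with a 95% interval from 0.12 to 0.55, and against DMSO it was at -0.20 ± 0.10 (FDR = 0.202).

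HCFC1 stayed between palbociclib and DMSO in all 4 lines, given here in the order DMSO, palbociclib and washout. H28 had 7781, 5700 and 6004 CP20M, MSTO-211H 4905, 3158 and 3546, H2052 4565, 3567 and 3960, and H2452 4362, 3094 and 3859. For SMARCC1, H28 had 5095, 3532 and 3440 CP20M, MSTO-211H 3877, 3140 and 3223, H2052 1861, 1403 and 1633, and H2452 1654, 1363 and 1408. SMARCC1 was thus close to its palbociclib value in H28, H2452 and MSTO-211H. These 2 genes were the only members whose washout values were below DMSO by the FDR alone, HCFC1 by 0.31 ± 0.08 (FDR = 0.0403) and SMARCC1 by 0.31 ± 0.08 (FDR = 0.0418), beside 7.43% of all genes lower, and 5.76% of genes passed both criteria in either direction. The count of 2 members by the FDR alone went to 0 when any of the 4 lines was left out, with either other scaling and without the line as a block.

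BAP1 went from 1432 CP20M with palbociclib to 1793 after washout in H2052, from 991 to 1221 in H2452, from 2096 to 2139 in H28 and from 2088 to 1935 in MSTO-211H. The difference over the 4 lines was 0.14 ± 0.10 (FDR = 0.648), with 3 lines higher and 1 lower. FOXK1 in H28 stayed high at 13141 CP20M, 124% of DMSO, and in MSTO-211H low at 5282 CP20M, 62.8% of DMSO, below the palbociclib library. FOXK2 was between 100% and 103% of DMSO in the 4 lines. SETD2 was back above its DMSO value in H2052, and at 85.1% of it in MSTO-211H, 84.3% in H28 and 94.0% in H2452, and PBRM1 was at 76.5% in H28, under its palbociclib value, at 93.7% in H2052, and above DMSO in MSTO-211H (1483 against 1448 CP20M) and H2452 (1023 against 941). Of the list genes, EZH2 (1.45), PHF19 (1.70) and NSD2 (1.03) were called higher after washout than with palbociclib, as was MKI67 (2.99).

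**Figure D5:**
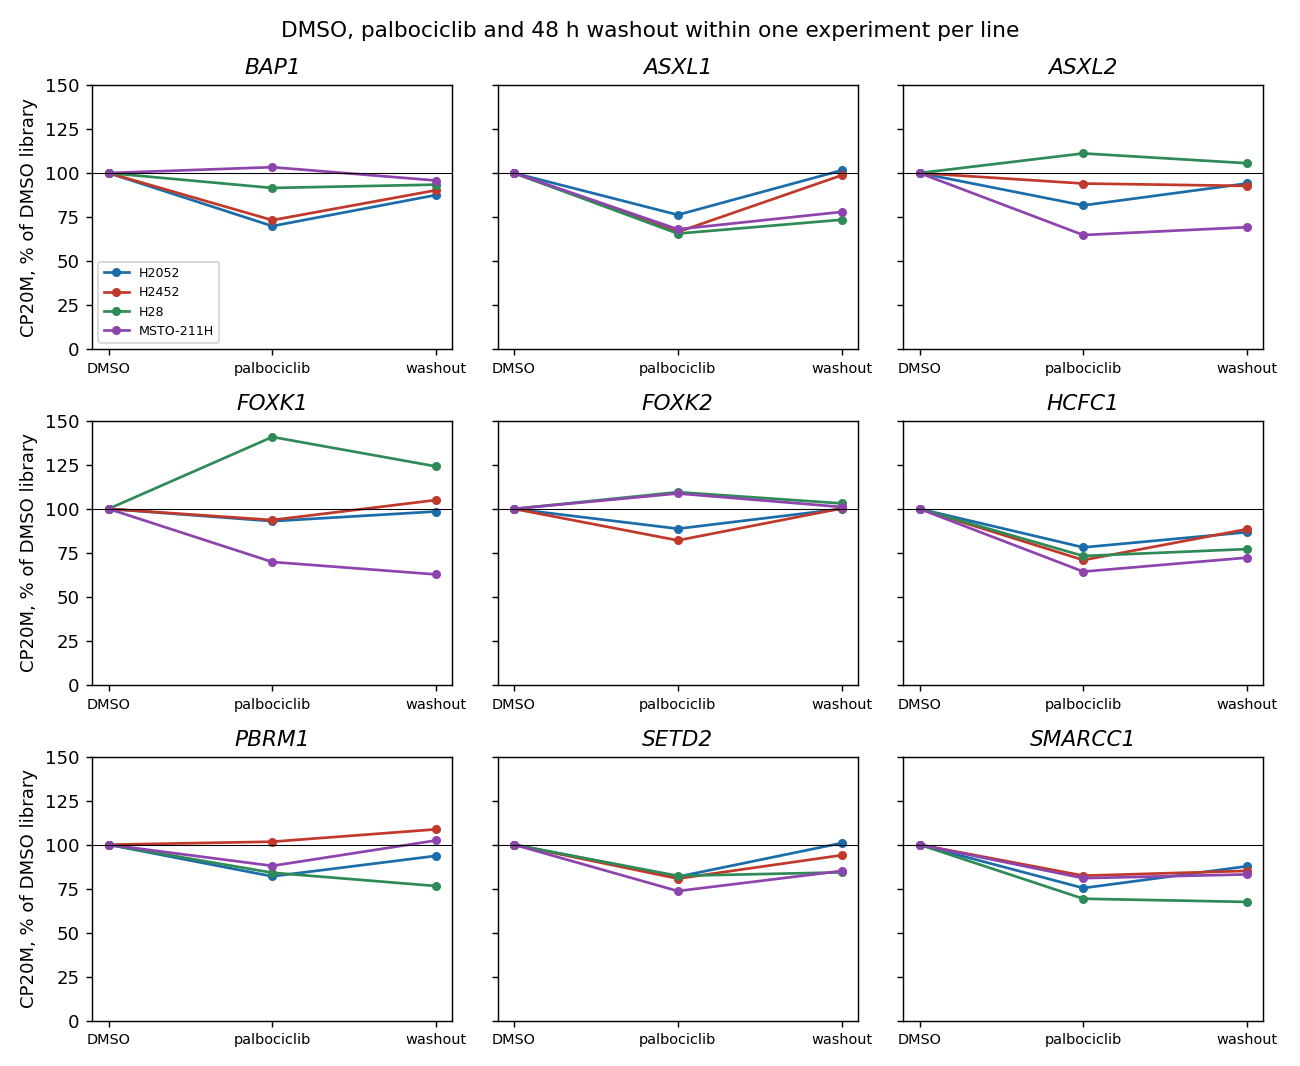
CP20M as a percentage of the DMSO library of the same experiment (y axis, from 0) for DMSO, palbociclib and 48 h washout (x axis), with a line for each of the 4 sensitive cell lines and a panel for each gene. ASXL1 returns to 102% in H2052 and 98.7% in H2452 and stays at 73.5% in H28, and FOXK1 stays at 124% in H28 and 62.8% in MSTO-211H.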

How the data were processed

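The data were RNA-seq values of 33 libraries of 6 established cell lines. Per the labels and the methods, directional paired-end libraries were trimmed with Trimmomatic 0.36, mapped with STAR 2.5.3 to GRCh38 and counted per gene with HTSeq 0.9.1. The authors scaled each library to counts per 20000000 reads, and the deposited values are a normalized score in whole numbers, not read counts, so the count model of DESeq2 that the authors used was not applied. Their filter of at least 100 CP20M in at least 1 library left 17803 genes. Fits were made on log2(CP20M + 10), the scale of all fold changes, in limma 3.58.1 (R 4.3.3) using eBayes with a trend. A call needed a fold change above 1.5 in either direction and a Benjamini-Hochberg FDR under 0.05 over all genes. Basal fits used the 15 control libraries, palbociclib fits had the experiment as a block, and washout fits used 12 libraries with the line as a block. The labels give the experiment numbers, and deviations of same-numbered DMSO and palbociclib libraries from their group means correlated with r from 0.18 to 0.78 across genes. Where the labels do not say that experiments were separate cultures, p-values measure the spread between these libraries. Replicate libraries had equal values at no more than 4.33% of tested genes, so all were counted.

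The members and the lists were chosen with earlier results of these data known. Named genes are the 9 members, up to 4 called genes of largest change per list, and the 3 genes most correlated with BAP1 and with SMARCC1. OGT, KDM1B, MBD6, RING1, RNF2, SMARCA4, NSD1, THAP11 and ZNF143 are named in addition, chosen after seeing their values. The same holds for SMARCB1, SMARCD1, SMARCA2, SMARCD3, DPF1, DPF3 and SS18. As alternatives, the pseudocount was set to 1 or 50, the filter was dropped or applied only to the libraries fitted, libraries were rescaled by the median of ratios or by the upper quartile, the trend or the replicate block was removed, pairs were averaged per line, and every library, pair or line was left out once. Counts by the FDR alone and the 5 Mb bins were added after seeing the data. The fits were tested on simulated data. Positions are from GENCODE 44 (57532 of 58302 gene IDs matched), and upstream sequences are RefSeq's. Figures were drawn with matplotlib 3.10.9.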

Additional observations from a re-analysis of the deposited data

Results flagged for a closer look

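The change with palbociclib differed between the sensitive and the resistant lines for 3 genes, by a limma test of the difference itself, whose units were pairs and not lines. The FDR was 0.00486 for ASXL1, 0.0312 for SETD2 and 0.0431 for HCFC1, with the gene lower in 11 of 11, 11 of 11 and 10 of 11 pairs of sensitive lines and in 0 of 3, 1 of 3 and 1 of 3 pairs of resistant lines. The fold of each difference was under 1.5, and 7.81% of all genes were lower in the sensitive lines by the FDR alone. ASXL1 lost its FDR under 0.05 in 1 of 22 alternatives, SETD2 in 6 and HCFC1 in 15.

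The change also differed among the 4 sensitive lines for 4 genes, by a limma F test, with an FDR of 0.00934 for FOXK1, 0.014 for BAP1, 0.0218 for FOXK2 and 0.0293 for ASXL2. The same test passed for 37.1% of all genes, so 4 of 9 members is near that share. The FDR was no longer under 0.05 in 11 of 19 alternatives for ASXL2, 6 for FOXK2, and 1 each for BAP1 and FOXK1. FOXK1 was higher in all 3 pairs of H28 and lower in all 3 pairs of MSTO-211H.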

How the results depend on the processing

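No alternative brought a member past both thresholds with palbociclib or after washout. Each of the 9 members differed among the 6 lines under every alternative, and of the 19 calls of a line against the others 18 to 22 were made when 1 library was left out. H2052 then had 1 to 2 calls, with 2 without its replicate 1, and MSTO-211H had 1 to 3, with 1 without its replicate 2. The call of ASXL1 in H28 was lost with median-of-ratios (-0.569) and upper-quartile scaling (-0.522) and without H28 replicate 2 (-0.578), and that of PBRM1 in MeT-5A with median-of-ratios scaling (0.577).

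The counts by the FDR alone depended more on the processing, and the cause was not tested. The 7 members of the sensitive lines became 4 with median-of-ratios scaling, 3 with upper-quartile scaling and 4 with line means as units, and were 5 to 7 when 1 pair or line was left out. FOXK1 turned to 0.159 and FOXK2 to 0.0887 with median-of-ratios scaling, to 0.0918 and 0.0221 with upper-quartile scaling, and FOXK1 to 0.00172, 0.010 and 0.0984 without MSTO-211H replicate 2, replicate 3 or the line, with a lowest value of -0.176 without H28. In H2052 the 3 became 0 with a pseudocount of 1, no filter, either scaling or no trend, 1 with no replicate block and 7 with the filter within the fit. In H2452 the 5 became 0 with no filter, 3 and 1 with the 2 scalings and 0 to 1 when a pair was left out. In H28 the 2 became 0 with no filter, 4 with the filter within the fit, 1 with median-of-ratios scaling and 0 when a pair was left out. MSTO-211H had 2 with the filter within the fit. The 3 of the difference between classes became 0 and 1 with the scalings, 1 without trend and 1 to 4 without a pair. The 4 among sensitive lines became 1 with upper-quartile scaling, 2 without trend, 2 with no replicate block and 2 to 4 without a pair. For washout against DMSO the 2 became 0 with no filter, either scaling, no trend, no replicate block and without any line, and ASXL1 turned to 0.0156 with upper-quartile scaling. Palbociclib against DMSO in those experiments went from 4 to 1 and 0 with the scalings and 0 with no replicate block. Other alternatives left these counts within 1.5 times.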
